A study of Mus musculus with 8 samples.

Results

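E14Tg2a, a mouse embryonic stem (ES) cell line, was transfected with either of 2 small interfering RNA (siRNA) duplexes against Tet1, siRNA 1 and siRNA 2, and expression with one duplex was compared with expression with the other at 96 h. The arrays were chosen by their titles. The comparison used 4 of the 8 arrays of the series, 2 with siRNA 1 and 2 with siRNA 2, all at 96 h. A further 2 arrays were of cells given a control duplex directed at firefly luciferase, also at 96 h. They served to place a difference between the duplexes relative to control cells, and they entered the shared estimate of the spread. The remaining 2 arrays, of siRNA 1 at 48 h, entered the shared estimate of the spread and no tested comparison. They also entered the mean levels by which probe sets were chosen and dim genes left out, and their levels are given in places. All groups are the same cell line, with no further allele or agent in the labels, and the duplexes were applied to whole cultures. The labels do not state that replicate arrays hold independent cultures; the spread behind each p-value is that between replicate arrays and could be purely technical. Expression is given as log2 RMA values, on which a difference of 1 is a doubling. A difference was called at an adjusted p below 0.05 (limma, Benjamini-Hochberg over 15268 genes).

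An siRNA guides the Argonaute protein to matching transcripts, which are then cut. Different duplexes against a gene share that target but not their other partial matches, so effects on other transcripts can differ between them. Tet1 encodes a dioxygenase that oxidises methylated cytosine in DNA to hydroxymethylcytosine and is abundant in ES cells. These cells are held in the naive pluripotent state by LIF, acting through Stat3, and by a network of transcription factors that includes Nanog, Esrrb, Klf4 and Tbx3; on leaving that state they switch on formative and primed genes such as Fgf5, Otx2 and Pou3f1.

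All 10 ES cell markers examined lay above the array median on all 6 arrays of 96 h, the lowest at 8.47 (Esrrb) and the highest at 14.63. Summed levels of a fibroblast marker list were 12.10 and 12.14 with siRNA 1, 12.14 and 12.13 with siRNA 2, and 12.15 and 12.07 in control cells, so the groups overlapped. Those of an endothelium and blood list were 9.70 and 9.67, 9.75 and 9.62, and 9.61 and 9.62 in the same order of groups. Lung transcripts were present on the 96 h arrays in all 3 groups. Scgb1a1, a secretory protein of airway club cells, read 12.48 and 12.27 with siRNA 1, 12.83 and 11.95 with siRNA 2, and 12.66 and 12.64 in control cells, against 3.71 and 4.03 on the arrays of 48 h. The summed level of 21 lung markers was 13.33 and 13.15 with siRNA 1, 13.66 and 12.99 with siRNA 2 and 13.52 and 13.56 in control cells: the siRNA 1 arrays lay between the 2 siRNA 2 arrays. With that summed level as a covariate, the number of genes called between the duplexes was again 3. Because the level overlapped between the duplexes, the covariate could shift their difference little, and nothing is concluded from that count.

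Tet1 itself was measured by the probe set that carries its Entrez gene ID. It read 11.04 and 11.09 with siRNA 1, 11.32 and 11.14 with siRNA 2, and 12.35 and 12.15 in control cells. Both duplexes lowered it, siRNA 1 by 2.27-fold (adjusted p = 1.6e-04, limma) and siRNA 2 by 2.02-fold (adjusted p = 6.5e-04, limma). The siRNA 1 arrays were both below the siRNA 2 arrays, the nearest of them by less than the gap between the siRNA 2 arrays themselves. The difference between the duplexes was -0.17, with a 95% interval of -0.40 to 0.065 and an adjusted p of 0.612 (limma). The interval holds both no difference and a level up to 0.40 lower with siRNA 1, so a modest gap in knockdown at 96 h was not detectable with 2 arrays a group. On the arrays of siRNA 1 at 48 h, Tet1 read 9.70 and 9.82, lower than on any array of 96 h. The series has no control at 48 h to set beside that level.

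Few genes passed the test between the duplexes. Of 15268 genes, 3 were called between them, or 0.0196%, and all 3 were lower with siRNA 1. At an unadjusted p below 0.05 there were 1625 genes (10.6%), 767 higher (5.02%) and 858 lower (5.62%) with siRNA 1. Group means differed by 1.5-fold or more for 43 genes, 14 higher and 29 lower with siRNA 1, and by 2-fold or more for 1. The 95% interval of the difference lay wholly within 1.5-fold in either direction for 14191 genes (92.9%). By comparison, siRNA 1 against control gave 3488 called genes (22.8%) and siRNA 2 against control gave 2393 (15.7%). These comparisons share the 2 control arrays.

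The count between the duplexes depended on how the spread was estimated. It was 124 (0.812%) when the prior variance was allowed to follow expression level (limma's trend option), 44 higher (0.288%) and 80 lower (0.524%) with siRNA 1. It was 172 of 7634 genes (2.25%) when genes with a mean level under 6.79, the median over genes, were left out, 68 higher (0.891%) and 104 lower (1.36%). Of these, 110 genes were called in both settings, 88.7% of the first set and 64% of the second. Leaving the 48 h arrays out of the fit gave 0 called genes (1496 at an unadjusted p below 0.05), as did leaving out any one of the siRNA 1 or siRNA 2 arrays (1070 to 1621).

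**Figure D1:**
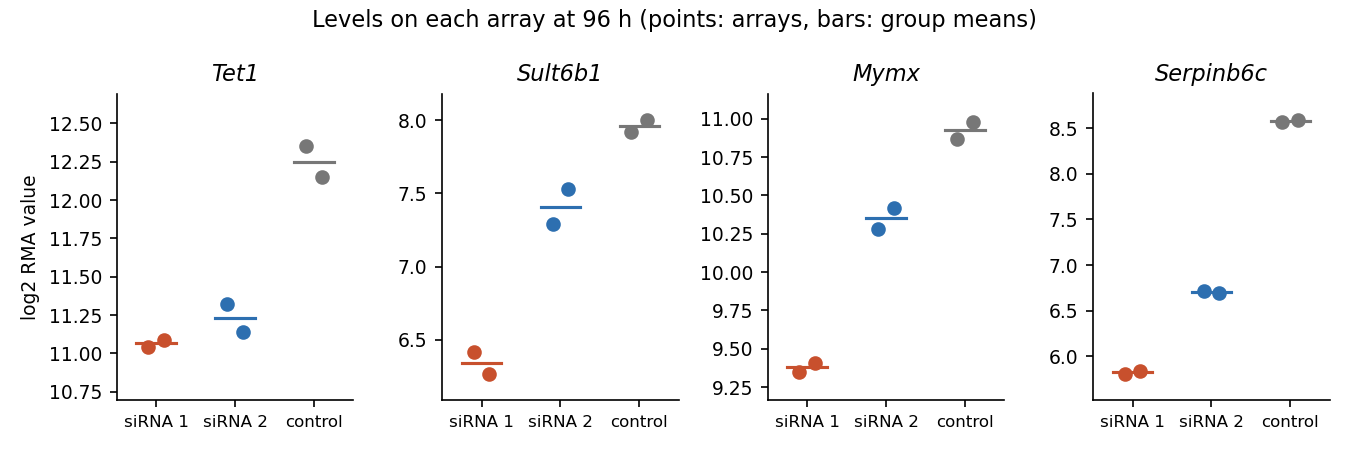
Log2 RMA values of Tet1 and of the 3 genes called between the duplexes, on each 96 h array (points) with group means (bars), for siRNA 1, siRNA 2 and control; each panel has its own axis, which does not start at 0. Tet1 arrays of both duplexes lie close together and well below control, whereas for Sult6b1, Mymx and Serpinb6c the siRNA 2 arrays lie between the siRNA 1 arrays and the control arrays.

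The 3 called genes were Sult6b1, a member of the cytosolic sulfotransferase family, Mymx, which encodes a membrane microprotein needed for myoblast fusion, and Serpinb6c, of the clade B serine protease inhibitors. Sult6b1 read 6.42 and 6.27 with siRNA 1, 7.29 and 7.53 with siRNA 2 and 7.92 and 8.0 in control cells. Mymx read 9.35 and 9.41 with siRNA 1, 10.28 and 10.42 with siRNA 2 and 10.87 and 10.98 in control cells. Serpinb6c read 5.81 and 5.84 with siRNA 1, 6.72 and 6.69 with siRNA 2 and 8.57 and 8.59 in control cells. In each of them the 3 groups were fully separated and siRNA 2 lay in the middle. On the arrays of siRNA 1 at 48 h, Sult6b1 read 6.4 and 6.37 and Serpinb6c 7.14 and 7.2. Mymx read 11.85 and 11.9 there, above its control arrays of 96 h. The series has no control at 48 h.

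The difference between the duplexes was -1.06 ± 0.098 for Sult6b1 (SE, adjusted p = 0.0205, limma), -0.97 ± 0.082 for Mymx (adjusted p = 0.0157, limma) and -0.88 ± 0.069 for Serpinb6c (adjusted p = 0.0157, limma). All 3 also fell with each duplex against control. Serpinb6c was 6.74-fold below control with siRNA 1 and 3.67-fold with siRNA 2; Sult6b1 was 3.06-fold and 1.46-fold below; Mymx was 2.92-fold and 1.49-fold below. By the class rule, in which a gene is graded when both duplexes are called against control in one direction, all 3 were graded with siRNA 1 farther from control, and none was particular to one duplex. When the 48 h arrays were left out the differences were the same size but the adjusted p was 0.142 for Sult6b1 and 0.102 for the other two.

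Just outside the threshold were Manba, a lysosomal beta-mannosidase, at -0.66 (adjusted p = 0.0791, limma), Stmn3, a stathmin family protein that binds tubulin, at -0.75 (adjusted p = 0.10), and Hopx, a small homeodomain protein, at -0.59 (adjusted p = 0.10). Manba read 8.99 and 9.13 with siRNA 1, 9.74 and 9.70 with siRNA 2 and 10.69 and 10.74 in control cells. Stmn3 read 7.14 and 7.34 with siRNA 1, 7.97 and 8.02 with siRNA 2 and 9.41 and 9.41 in control cells. Hopx read 9.69 and 9.73 with siRNA 1, 10.35 and 10.24 with siRNA 2 and 10.39 and 10.42 in control cells. All 3 showed the order of the called genes, but for Hopx siRNA 2 lay close to control (-0.11, adjusted p = 0.372, limma). Hopx is on the lung list too; with the summed lung level as a covariate its difference between the duplexes was -0.58 (adjusted p = 0.141, limma). Csn3, which encodes the milk protein kappa-casein, was the largest difference above control among graded genes, at 0.82 (adjusted p = 0.157, limma), with 5.94 and 5.73 with siRNA 1, 5.13 and 4.89 with siRNA 2 and 3.73 and 4.24 in control cells.

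To describe where the genes lay relative to control beyond these few, the 1625 genes at an unadjusted p below 0.05 were sorted by the class rule, with no test. Of these, 445 (27.4%) were graded with siRNA 1 farther from control and 17 (1.05%) were graded with siRNA 2 farther. A further 406 (25%) were called against control with siRNA 1 alone and 95 (5.85%) with siRNA 2 alone. None was called in opposite directions by the duplexes. The remaining 662 (40.7%) were called against control with neither, and for 491 of them (74.2%) the control mean lay between the duplexes. The class rule itself favours some orders of the means. Calls against control needed an adjusted p below 0.05, and the difference between the duplexes only an unadjusted p. The order within a class is therefore given only as a description. For 371 of the 406 siRNA 1 genes (91.4%) the siRNA 2 mean lay between control and siRNA 1. For 83 of the 95 siRNA 2 genes (87.4%) the siRNA 1 mean lay between control and siRNA 2. Among the 371 siRNA 1 genes was Fgf18, a fibroblast growth factor. It read 6.33 and 6.16 with siRNA 1, 7.01 and 6.91 with siRNA 2 and 7.37 and 7.43 in control cells. For Fgf18, siRNA 2 against control just missed the threshold (adjusted p = 0.0507, limma). Among the 43 genes with means at least 1.5-fold apart, siRNA 2 lay between control and siRNA 1 for 35 (81.4%), siRNA 1 lay between control and siRNA 2 for 1 (2.33%), and control lay between the duplexes for 7 (16.3%). Among the 1625 genes the same positions held for 56.1%, 10.8% and 33.1%, and among all genes for 50.7%, 30.8% and 18.5%.

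A second description started from the genes called for the mean of both duplexes against control, 3705 in all (24.3%), 1838 higher (12%) and 1867 lower (12.2%). With equal arrays a group, that mean change is independent in its error of the difference between the duplexes. Of the 3705 genes, 2749 (74.2%) lay farther from control with siRNA 1 than with siRNA 2, compared with 6481 of the 11563 other genes (56%) and 60.5% of all genes. The share was 76.9% among genes above control and 71.5% among genes below it. It was larger where the mean change was larger: 70.4% of 2829 genes changed under 1.5-fold, 84.8% of 638 genes changed 1.5- to 2-fold, and 91.2% of 238 genes changed 2-fold or more.

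The size of the gap was modest. Among genes 2-fold or more above control, the median distance from the control mean was 1.33 and 1.44 on the siRNA 1 arrays and 1.13 and 1.15 on the siRNA 2 arrays. Among genes 2-fold or more below control it was -1.41 and -1.30 on the siRNA 1 arrays, and -1.05 and -1.02 on the siRNA 2 arrays. Both siRNA 1 arrays were thus farther out than both siRNA 2 arrays, in either direction. Gene by gene in this set, the arrays of the duplexes were fully apart with siRNA 1 farther out for 166 genes and with siRNA 2 farther out for 4. Arrays of the 2 duplexes were fully apart for 41.1% of all genes. With any single array left out, the share of called genes farther out with siRNA 1 ranged from 66.3% to 78.1%.

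**Figure D2:**
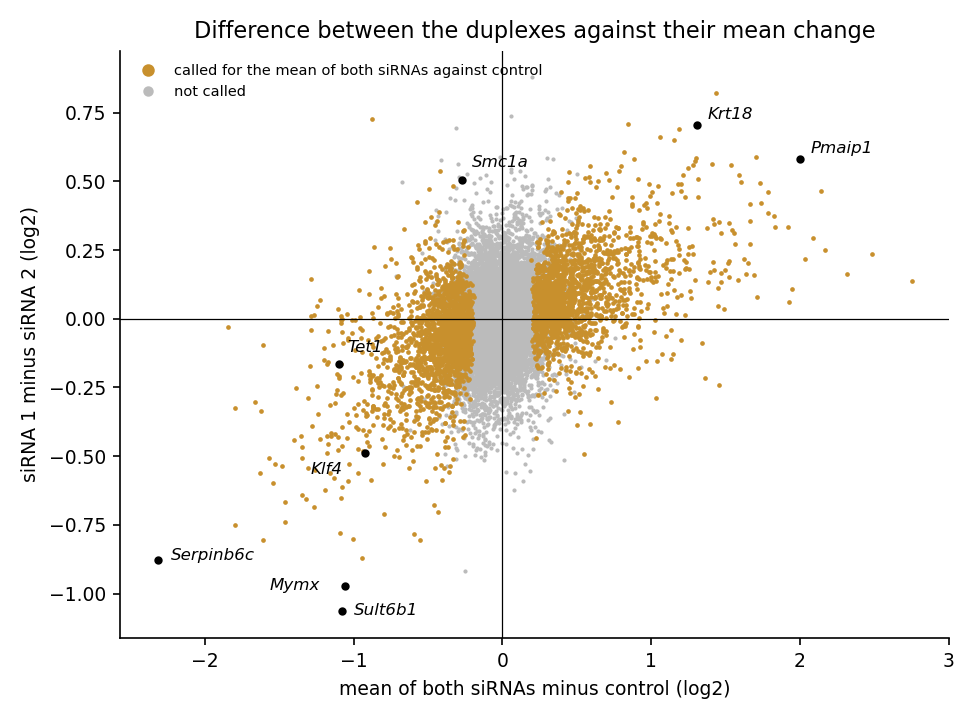
Each point is a gene, with the mean of both duplexes minus control on the horizontal axis and siRNA 1 minus siRNA 2 on the vertical axis, both in log2; coloured genes were called for the mean change and black points are named. Genes far below control mostly lie under the horizontal line and genes far above control mostly lie over it, with Serpinb6c, Mymx and Sult6b1 lowest of the named genes and Smc1a off this pattern.

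**Figure D3:**
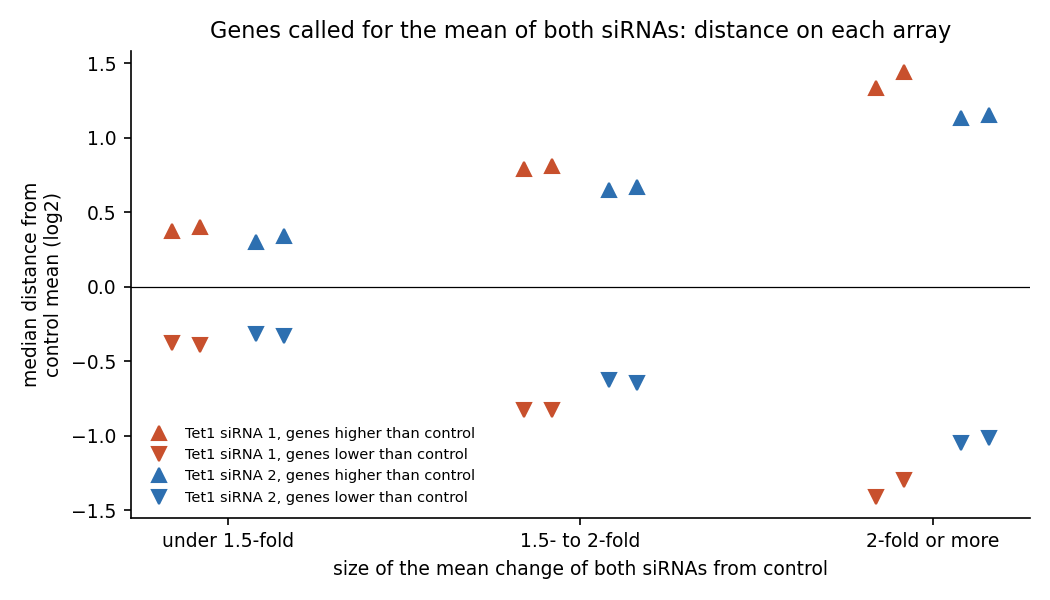
Median distance from the control mean (log2) on each siRNA 1 and siRNA 2 array, over the genes called for the mean of both duplexes, split by the size of that mean change and by direction. In all 3 size classes the siRNA 1 arrays lie farther from 0 than the siRNA 2 arrays, by the widest margin at 2-fold or more.

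The first principal component of the 6 arrays of 96 h held 65.9% of the variance and placed the groups in the same order, with siRNA 1 at 16.1 and 17.9, siRNA 2 at 7.20 and 9.30, and control at -24.7 and -25.8. The second, with 10.1%, did not follow that order: siRNA 1 lay at 1.56 and 10.9, siRNA 2 at -12.7 and -3.63, and control at 3.14 and 0.70. On it both siRNA 1 arrays were above both siRNA 2 arrays and the control arrays lay above siRNA 2 and within or near the range of siRNA 1.

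Among the gene lists, naive pluripotency genes differed most in median between the duplexes. Of 21 measured members, 17 had lower means with siRNA 1 and 16 (76.2%) had an unadjusted p below 0.05, all lower, against 5.62% of all genes; 0 were called over all genes. The median difference was -0.37, against -0.0012 over all genes. Among genes called below control for the mean of both duplexes, it was -0.19 at 1.5- to 2-fold and -0.35 at 2-fold or more. Of those genes 83.6% and 91.2% lay farther from control with siRNA 1. Whether the naive list differed beyond what the size of its change would give was not tested. Against control the list's median was -0.89 with siRNA 1 and -0.62 with siRNA 2, and 17 members fell with siRNA 1 (11.2% of all genes did) and 13 with siRNA 2 (7.66% of all genes did). In RNA from a whole culture, fewer naive cells and less RNA per cell cannot be told apart. With limma's trend option 10 of the 21 were called lower with siRNA 1 (0.524% of all genes were), among them Nanog, Esrrb, Klf4 and Tbx3. When dim genes were left out, 10 of the 20 tested were called lower (1.36% of all genes tested then were).

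Prdm14, a transcription factor that represses the Fgf receptor pathway and de novo DNA methyltransferases, had the largest difference of the list, -0.78 (adjusted p = 0.133, limma). It read 7.18 and 7.55 with siRNA 1, 8.12 and 8.17 with siRNA 2 and 8.76 and 8.94 in control cells. Klf4, a zinc finger factor and LIF target, read 9.65 and 9.73 with siRNA 1, 10.20 and 10.17 with siRNA 2 and 10.85 and 10.87 in control cells. Esrrb, an orphan nuclear receptor of the naive network, read 8.47 and 8.59 with siRNA 1, 8.99 and 9.03 with siRNA 2 and 9.83 and 9.93 in control cells. For all 3 genes each siRNA 2 array fell between the siRNA 1 and the control arrays. The differences of Klf4 and Esrrb between duplexes were -0.49 and -0.48, with 95% intervals of -0.67 to -0.31 and -0.66 to -0.30 (adjusted p = 0.133 each, limma).

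Nanog, the homeobox factor that can sustain naive cells without LIF when overexpressed, read 10.85 and 11.09 with siRNA 1, 11.31 and 11.42 with siRNA 2 and 12.26 and 12.24 in control cells. Its difference between duplexes was -0.39 (adjusted p = 0.217, limma). Tbx3 and Tfcp2l1, T-box and CP2-family factors downstream of LIF, had differences of -0.43 and -0.39, and Klf2 and Jam2, a junctional adhesion molecule, of -0.49 and -0.47. Tcl1, an Akt coactivator, differed by -0.53, and Zfp42, also known as Rex1, by -0.37.

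The list was not uniform. Dppa3, a maternal factor that protects methylation in the early embryo, read 7.80 and 7.88 with siRNA 1, 7.80 and 7.86 with siRNA 2 and 8.04 and 7.96 in control cells. Dazl, a germ cell RNA-binding protein, went the other way from the list with both duplexes: it read 7.20 and 7.13 with siRNA 1, 7.19 and 7.12 with siRNA 2 and 6.58 and 6.28 in control cells. Klf5 and Pecam1 had slightly higher means with siRNA 1, by 0.15 and 0.11, with intervals that included 0.

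**Figure D4:**
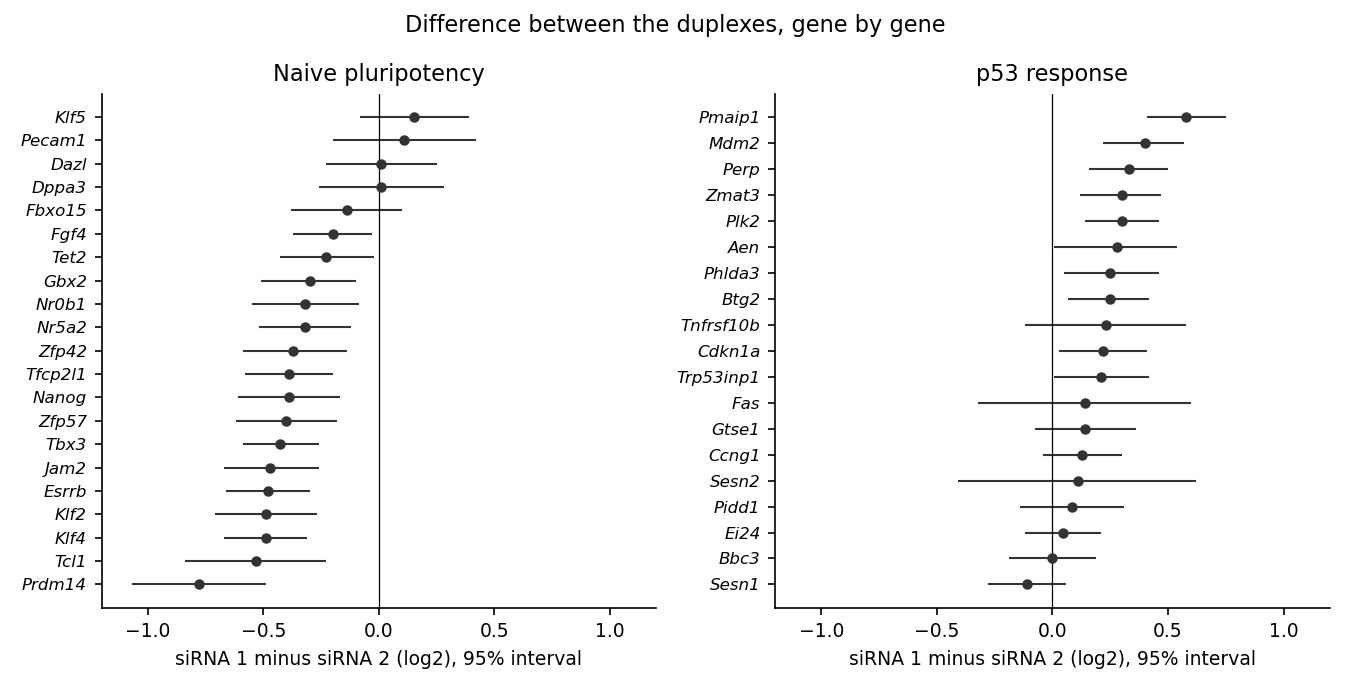
Difference between the duplexes (siRNA 1 minus siRNA 2, log2; points) with its 95% interval (lines) for the 21 measured naive pluripotency genes and the 19 measured p53 response genes. The naive genes run from Prdm14 at -0.78 to Klf5 at 0.15 and the p53 response genes from Sesn1 at -0.11 to Pmaip1 at 0.58.

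General pluripotency genes, which naive and primed cells share, showed little difference between the duplexes. Of 19 measured members, 1 had an unadjusted p below 0.05 (10.6% of all genes did) and the median difference was 0.018. Pou5f1, which encodes Oct4, read 13.52 and 13.60 with siRNA 1, 13.52 and 13.56 with siRNA 2 and 13.63 and 13.76 in control cells. Its difference of 0.018 had an interval of -0.18 to 0.21. Sox2, the partner of Oct4, differed by -0.12 (interval -0.29 to 0.038). The 1 member below the unadjusted threshold was Epcam, an epithelial adhesion molecule, higher with siRNA 1 by 0.31 (adjusted p = 0.302, limma).

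Formative and primed genes differed less than naive genes. Of 22 measured members 12 rose with each duplex against control (11.6% of all genes rose with siRNA 1 and 8.01% with siRNA 2), with medians of 0.43 with siRNA 1 and 0.37 with siRNA 2. Between the duplexes the median was 0.10, with 7 members higher and 1 lower at an unadjusted p below 0.05 (36.4%, against 10.6% of all genes) and 0 called. Krt18, a simple epithelial keratin, read 9.56 and 9.59 with siRNA 1, 8.80 and 8.94 with siRNA 2 and 7.85 and 7.98 in control cells, a difference of 0.70 (adjusted p = 0.10, limma). Sall2, a zinc finger factor of the Sall family, differed by 0.52 and the POU factor Pou3f1 by 0.42. These 3 were called higher with limma's trend option (3 of 22, against 0.288% of all genes) and with dim genes left out (3 of 16, against 0.891%).

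For some formative genes with large rises the interval of the difference between the duplexes included 0. Fgf5, a growth factor of the post-implantation epiblast, read 6.96 and 6.63 with siRNA 1, 6.36 and 6.79 with siRNA 2, and 4.66 and 4.64 in control cells, so the duplex arrays overlapped far above control. Its difference was 0.22, with an interval of -0.13 to 0.56. Lef1, a Wnt effector, rose by 1.96 with siRNA 1 and 1.90 with siRNA 2, and Car4, a carbonic anhydrase, by 2.00 and 1.89. Foxd3, a forkhead factor, was the 1 member lower with siRNA 1 at an unadjusted p below 0.05. It differed by -0.28 and was called against control with neither duplex. By means alone, 6 members were lower with siRNA 1.

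A further 3 genes with large rises were on the panel of named genes. Rasef, a Rab-related GTPase, rose by 2.82 with siRNA 1 and 2.68 with siRNA 2, with a difference of 0.14 (interval -0.28 to 0.56). Rnf128, an E3 ubiquitin ligase, rose by 2.6 with siRNA 1 and 2.37 with siRNA 2, a difference of 0.24 whose interval of 0.072 to 0.40 lay above 0 (adjusted p = 0.301, limma). Nefm, a neurofilament subunit, rose by 2.40 with siRNA 1 and 2.24 with siRNA 2.

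The p53 response list, of genes that p53 activates after DNA damage or other stress, leaned the other way from the naive list. Of 19 measured members 17 had higher means with siRNA 1, and 10 (52.6%) were higher at an unadjusted p below 0.05, against 5.02% of all genes; 0 were called. The median difference was 0.22. Among genes called above control for the mean of both duplexes it was 0.068 under 1.5-fold, 0.16 at 1.5- to 2-fold and 0.24 at 2-fold or more. Whether the p53 list differed beyond what the size of its change would give was not tested. Against control, 11 members rose with siRNA 1 (11.6% of all genes did) and 7 with siRNA 2 (8.01% of all genes did), with medians of 0.50 and 0.24. Pmaip1, which encodes the BH3-only protein Noxa, read 10.78 and 10.80 with siRNA 1, 10.22 and 10.21 with siRNA 2 and 8.43 and 8.57 in control cells, a difference of 0.58 (adjusted p = 0.10, limma). Mdm2, the E3 ligase that degrades p53, read 10.52 and 10.60 with siRNA 1, 10.16 and 10.17 with siRNA 2 and 9.84 and 9.74 in control cells, a difference of 0.40. In both, siRNA 2 again lay between siRNA 1 and control.

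Perp, a desmosomal effector of p53, differed by 0.33, the kinase Plk2 and the RNA-binding protein Zmat3 by 0.30 each, and Cdkn1a, the cell cycle inhibitor p21, by 0.22 (interval 0.030 to 0.41, adjusted p = 0.410, limma). With the trend option 5 of the 19 were called higher with siRNA 1 (0.288% of all genes were), and with dim genes left out 4 of the 17 tested (0.891% of all genes tested then were). Bbc3, which encodes Puma, did not follow: it read 8.40 and 8.43 with siRNA 1, 8.46 and 8.37 with siRNA 2 and 8.45 and 8.53 in control cells. Sesn1 had a lower mean with siRNA 1, by -0.11.

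Of 20 measured apoptosis genes 4 were higher with siRNA 1 at an unadjusted p below 0.05 (20%, against 5.02% of all genes) and 0 were called. The initiator caspase Casp8 read 7.68 and 7.68 with siRNA 1, 7.22 and 7.29 with siRNA 2 and 5.67 and 5.79 in control cells. Apaf1, the scaffold of the apoptosome, read 8.76 and 9.0 with siRNA 1, 8.32 and 8.52 with siRNA 2 and 8.24 and 8.05 in control cells. With dim genes left out these were called higher, 2 of 10 tested (0.891% of all genes tested then were). With the trend option 0 of the 20 were called.

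**Figure D5:**
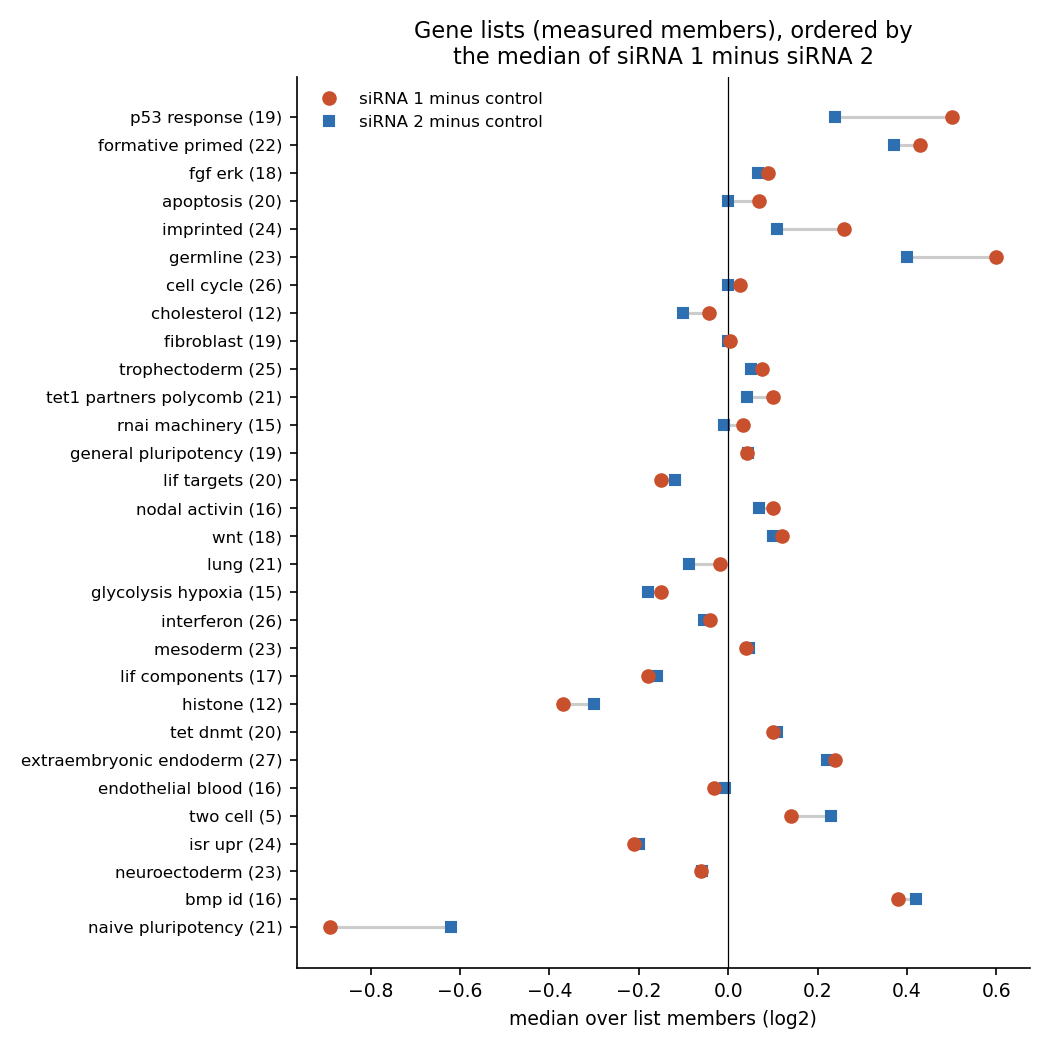
Median over the measured members of each gene list (number in parentheses) of siRNA 1 minus control (circles) and siRNA 2 minus control (squares), in log2, with lists ordered by the median difference between the duplexes. The circle lies farthest from the square for the naive pluripotency list, at -0.89 and -0.62, and for the p53 response list, at 0.50 and 0.24, while most lists have both near 0 or near each other.

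Components of LIF signalling, from receptor to Stat factors and their inhibitors, differed little. Of 17 measured members 0 were called and 2 were lower with siRNA 1 at an unadjusted p below 0.05 (11.8%, against 5.62% of all genes); the median was -0.016. Stat3 read 8.99 and 9.05 with siRNA 1, 9.19 and 9.10 with siRNA 2 and 9.41 and 9.29 in control cells, and its difference was -0.12 (interval -0.31 to 0.061). Socs3, the feedback inhibitor that Stat3 induces, read 9.64 and 9.54 with siRNA 1, 9.85 and 9.78 with siRNA 2 and 10.10 and 10.06 in control cells, a difference of -0.22 (adjusted p = 0.359, limma). Of 20 measured LIF targets 5 were lower and 1 higher at an unadjusted p below 0.05 (30%, against 10.6% of all genes), and the median was 0.016. Those lower included Klf4, Tbx3, Tfcp2l1 and Socs3, which are named above.

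Among signals of other pathways, Bmp4, a growth factor that restrains neural fate, differed by -0.41 (adjusted p = 0.222, limma). Inhbb, the beta B subunit of activins and inhibins, read 7.59 and 7.83 with siRNA 1, 8.31 and 8.48 with siRNA 2 and 9.35 and 9.29 in control cells. Sfrp1, a secreted Wnt antagonist, read 7.07 and 7.06 with siRNA 1, 7.50 and 7.48 with siRNA 2 and 8.40 and 8.52 in control cells. All 3 genes were graded and farther from control with siRNA 1, though none was called between duplexes in the main setting. All 3 were called lower with limma's trend option (0.524% of all genes were) and with dim genes left out (1.36% of all genes tested then were). The medians of their lists were -0.10 (BMP and Id genes, 16 measured), 0.014 (Nodal and activin, 16) and 0.0020 (Wnt, 18). In that order, 18.8%, 6.25% and 22.2% of members had an unadjusted p below 0.05, against 10.6% of all genes.

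Genes of DNA methylation and its removal showed mixed differences: of 20 measured, 3 were higher and 2 lower with siRNA 1 at an unadjusted p below 0.05 (25%, against 10.6% of all genes), and the median was -0.034. Tet2, a dioxygenase that also oxidises methylcytosine, read 9.21 and 9.20 with siRNA 1, 9.46 and 9.41 with siRNA 2 and 10.13 and 9.89 in control cells. Tet2 is also a member of the naive list and already counted there, and it was graded (difference -0.23, adjusted p = 0.428, limma). Tet3, the other member of the family and dim here, read 5.18 and 5.24 with siRNA 1, 5.70 and 5.73 with siRNA 2 and 5.55 and 5.66 in control cells. Tet3 therefore fell below control with siRNA 1 (-0.39, adjusted p = 0.0360, limma), while with siRNA 2 its difference from control was 0.11 (adjusted p = 0.559). The difference between duplexes, -0.50, did not pass (adjusted p = 0.176, limma). The de novo methyltransferase Dnmt3b was higher with siRNA 1 by 0.18 (interval 0.016 to 0.34) and its relative Dnmt3a by 0.033.

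Genes that respond to double-stranded RNA or that process small RNAs were examined because they could respond to a duplex as such. Of 26 measured interferon response genes 2 were lower with siRNA 1 at an unadjusted p below 0.05 (7.69%, against 5.62% of all genes), Mavs and Ifitm2, and the median was -0.0096. Ifnb1, interferon beta, read 5.25 and 5.18 with siRNA 1, 5.26 and 5.09 with siRNA 2 and 5.24 and 5.13 in control cells. Of 15 measured genes of the small RNA machinery 1, Tnrc6c, an Argonaute partner, was lower at an unadjusted p below 0.05 (6.67%, against 5.62% of all genes) and the median was 0.025. Dicer1, the nuclease that makes small RNAs, differed by 0.031 (interval -0.14 to 0.20). No member of either list was called between duplexes in the main setting, with the trend option or with dim genes left out.

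The other classes at an unadjusted p below 0.05 held genes called against control with one duplex alone. Some of the largest differences of these classes are given first, and the genes after them were picked once their values were known; none was called between the duplexes. With siRNA 1 alone against control, Ammecr1 read 6.45 and 6.59 with siRNA 1, 5.49 and 5.79 with siRNA 2 and 6.05 and 5.71 in control cells (difference 0.88, adjusted p = 0.128, limma). Khdc3, a KH-domain protein of the oocyte and of ES cells, read 6.88 and 6.60 with siRNA 1, 7.24 and 7.64 with siRNA 2 and 7.66 and 7.39 in control cells. Control and siRNA 2 arrays overlapped in both genes. Plpp4, a lipid phosphatase, differed by -0.92 but read 3.57 and 3.20 with siRNA 1, within or near the 3.18 to 3.71 of a bacterial transcript taken as absent.

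With siRNA 2 alone called against control, the largest difference was that of Bpifa1, an airway secretory protein on the lung list. It read 8.04 and 7.83 with siRNA 1, 7.63 and 6.78 with siRNA 2 and 8.46 and 8.44 in control cells, so siRNA 1 lay between siRNA 2 and control. The lower siRNA 2 array was also the one with the lowest summed lung level, 12.99, and the part of lung transcripts in this difference was not tested. Abat, the enzyme that breaks down GABA, read 4.41 and 4.48 with siRNA 1, 5.09 and 4.90 with siRNA 2 and 4.50 and 4.58 in control cells. Among the 17 genes graded with siRNA 2 farther out, the largest difference was that of Doc2a, a calcium sensor of vesicle release, with 6.58 and 6.64 with siRNA 1, 7.0 and 7.0 with siRNA 2 and 6.23 and 6.20 in control cells.

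Smc1a, a core subunit of cohesin, was picked after its values were seen. It read 9.09 and 9.08 with siRNA 1, 8.56 and 8.59 with siRNA 2 and 9.15 and 9.05 in control cells, so the siRNA 1 and control arrays overlapped and the siRNA 2 arrays lay below both. On the arrays of siRNA 1 at 48 h it read 7.76 and 7.81, lower than on any array of 96 h. Without a control at 48 h, time and duplex cannot be told apart in that level. The difference between duplexes was 0.51 (interval 0.34 to 0.67, adjusted p = 0.119, limma); the adjusted p was 0.00820 with the trend option and 0.00653 with dim genes left out. Siding the other way, Plac8 read 8.86 and 8.88 with siRNA 1, 9.49 and 9.26 with siRNA 2 and 9.31 and 9.43 in control cells. With the trend option, the 124 called genes comprised 94 graded with siRNA 1 farther out, 26 with siRNA 1 alone, 3 with siRNA 2 alone, 1 with neither, and 0 in opposite directions. With dim genes left out, the 172 comprised 134, 30, 6, 2 and 0 in the same order of classes.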

How the data were processed

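Total RNA of E14Tg2a cells was labelled with biotin by in vitro transcription and hybridised to 8 Affymetrix arrays, per the labels' protocols. The authors deposited log2 expression values made with RMA, per the submitters' processing notes; that they are on a log2 scale follows from their range (2.6 to 15.3, array medians 6.68 to 6.72). Scanner signals, background levels, array batches and dates were not used here, and the number of arrays limits the precision. RMA sets arrays to one distribution, so a change in total RNA per cell is not visible.

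Of 16556 probe sets, 64 controls were left out. The platform annotation named 15270 with 1 gene each. Tet1 was not among them: its probe set was taken by its number, an Entrez gene ID, which the RefSeq gene table pairs with Tet1. The other 1221 unlisted probe sets stayed unnamed and untested. For 3 genes with several probe sets the highest mean was used, which left 15268 genes.

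A group-means model over all 8 arrays was fitted with limma 3.58.1 in R 4.3.3 (4 residual and 4.13 prior degrees of freedom, trend and robust off), two-sided, with Benjamini-Hochberg adjustment over all genes in each comparison; the fit was tested on simulated data. The labels' replicate numbers were not used as pairs: deviations of equally numbered arrays correlated at 0.14 between the siRNA groups and at -0.0561 to -0.0184 between the other groups. Genes named are all called genes, a panel and the 3 genes on each side of the threshold. Some, not all, of the largest differences per class and of the 2 smallest p per list are also named. None of the largest differences of the class called with neither duplex is named. Other list members and genes said to be so were picked after their values were seen. The comparison, the 30 gene lists and the panel were chosen with earlier results of these data known. The sorting at an unadjusted p and the share of genes farther from control were added after seeing the data. Alternatives were the arrays in the fit, the prior, quantile normalization, dim genes, probe sets, a replicate block, a lung covariate, thresholds and leaving out each array.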

Additional observations from a re-analysis of the deposited data

Results flagged for a closer look

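The 3 genes called between the duplexes are those whose distance from control was shown by a test to differ between siRNA 1 and siRNA 2, since the shared control cancels from that difference. It was -1.06 for Sult6b1, -0.97 for Mymx and -0.88 for Serpinb6c on the log2 scale, lower with siRNA 1 on both of its arrays than on either siRNA 2 array. No group holds 4 arrays or more, so single arrays were not examined for standing apart within a group.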

How the results depend on the processing

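The number of genes called between the duplexes, 3 in the setting reported, was 124 with the trend option and 172 with dim genes left out, and 0 without the 48 h arrays (1496 genes at an unadjusted p below 0.05), with only the 4 siRNA arrays in the fit (1471) and at an adjusted p below 0.01 (1625). Graded genes with siRNA 1 farther out then numbered 94 and 134, against 0, and the counts for siRNA 1 alone, siRNA 2 alone and neither were 26, 3 and 1 with the trend option and 30, 6 and 2 with dim genes left out. With a 1.5-fold minimum the 3 genes were 1 graded and 2 with siRNA 1 alone. Leaving out each array gave 0 to 3 called genes, and 0 to 3 graded: 0 without any siRNA 1 or siRNA 2 array or either 48 h array (1070 to 1621 genes at an unadjusted p below 0.05), and 3 without either control array. Calls against control ranged from 1907 to 3349 for siRNA 1 and from 1167 to 2044 for siRNA 2 when each array was left out. At an adjusted p below 0.01 they were 1701 and 943, and with a 1.5-fold minimum 1138 and 731. A replicate block left 2 called genes, Sult6b1 having an adjusted p of 0.0720 (limma), and 3 with the siRNA 2 numbers crossed, a pairing added after seeing the data. The labels do not say whether the numbers pair the arrays, so this is given only as a count. Differences near 0 changed sign: Bbc3 was 0.0013 with the lung covariate, and with each array left out the differences ranged from -0.050 to 0.048 for Bbc3, from -0.027 to 0.046 for Dazl, from -0.022 to 0.058 for Pou5f1, from -0.056 to 0.18 for Lef1, from -0.030 to 0.049 for Dppa3 and from -0.0054 to 0.28 for Rasef. None of these was called. The cause was not tested in any of these cases.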

Other observations

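Other lists of general cell functions showed small median differences between the duplexes, with 0 members called over all genes: 0.056 for 26 cell cycle genes, -0.057 for 24 genes of the unfolded protein and integrated stress responses, 0.050 for 12 cholesterol synthesis genes, -0.0046 for 15 glycolysis and hypoxia genes, -0.028 for 12 histone genes and 0.036 for 21 genes of Tet1 partners and Polycomb. At an unadjusted p below 0.05, 1 of the 24 stress response genes was higher and 5 were lower with siRNA 1 (25%, against 10.6% of all genes). The shares of the other lists just named ran from 0% to 16.7%. Ddit4, an inhibitor of mTORC1, read 10.82 and 10.78 with siRNA 1, 10.41 and 10.41 with siRNA 2 and 10.10 and 10.12 in control cells. This stress response gene was called higher with the trend option and with dim genes left out, and Dnajb9 was called lower in the latter setting. The replication-dependent histone gene H3c15 read 4.88 and 5.01 with siRNA 1, 5.32 and 5.22 with siRNA 2 and 6.87 and 6.94 in control cells.

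Lineage lists had medians of -0.037 (27 extraembryonic endoderm genes), 0.037 (25 trophectoderm), -0.011 (23 mesoderm) and -0.076 (23 neuroectoderm). In that order, 3.7%, 16%, 4.35% and 21.7% of members had an unadjusted p below 0.05, against 10.6% of all genes. With dim genes left out, Krt18, Krt19 and Krt8 were called higher and Lgals3 lower of 11 trophectoderm genes tested. Stmn3 and Tubb3 were called lower of 6 neuroectoderm genes. Of all genes tested then, 0.891% were called higher and 1.36% lower. Lgals3, galectin 3, read 10.36 and 10.40 with siRNA 1, 10.91 and 10.98 with siRNA 2 and 12.25 and 12.33 in control cells. The smooth muscle protein gene Tagln, on the fibroblast list, read 9.77 and 9.72 with siRNA 1, 9.34 and 9.15 with siRNA 2 and 7.92 and 7.86 in control cells, while the summed fibroblast level overlapped between the groups. Of 23 measured germline genes 13 rose with siRNA 1 against control (11.6% of all genes did) and 11 with siRNA 2 (8.01% of all genes did), with medians of 0.60 and 0.40. Between the duplexes 5 were higher with siRNA 1 and 1 lower at an unadjusted p below 0.05, where 5.02% of all genes were higher and 5.62% lower. Of 24 imprinted genes 2 were higher and 1 lower at that threshold; Sgce, a sarcoglycan expressed from the paternal allele, read 7.51 and 7.80 with siRNA 1, 7.13 and 7.29 with siRNA 2 and 6.51 and 6.61 in control cells.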
